A study of Mus musculus with 2 samples.

Results

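Melanoma cells that remained in a CD45+ sort were examined in single-cell RNA sequencing of B16-hAXL tumours. CD45, encoded by Ptprc, is a surface protein of leukocytes, and melanoma cells lack it. The cells were chosen by 5 limits on each barcode, the tag shared by all RNA of 1 droplet. A barcode needed at least 4000 unique molecular identifiers (UMIs, counted RNA molecules) and at most 10% mitochondrial UMIs. Pmel, Mlana, Dct and Tyrp1 together had to reach 0.6% of UMIs, Ptprc could have at most 1 UMI, and C1qa, C1qb and C1qc together had to stay below 0.4%. The limits selected 379 of 7355 barcodes that passed the UMI and mitochondrial limits, 106 of 3493 in the PBS library and 273 of 3862 in the 6C5 library.

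Both libraries came from tumours of mice of the genotype labelled WT that had been inoculated with B16-hAXL cells, which by their name are mouse B16 melanoma cells that carry human AXL. One group received PBS and the other 200 µg of 6C5, an antibody against AXL, both given into the peritoneum, and the samples were labelled day 15. The strain, age and number of the mice, and the promoter behind the human AXL, are not given in the sources used here. There was 1 library per group, so no test between the groups was possible. All intervals below are 95% intervals that cover counting error only, and the treatment cannot be told apart from any other difference between the libraries.

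Melanocytes and melanoma cells make melanin in melanosomes. Tyrosinase (Tyr), Tyrp1 and Dct carry out the enzymatic steps, Pmel forms the fibrils on which the pigment is laid down, and Mlana takes part in melanosome maturation. The transcription factor Mitf, with Sox10 and Pax3, drives these genes, and it binds E-boxes of the form CATGTG in several of their promoters. Melanoma cells can shift from this pigmented state to a neural-crest-like or mesenchymal-like one with less pigment gene RNA.

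The promoter windows of the 3 enzymes are shown because Dct and Tyrp1 chose the cells and Tyr, which the limits did not use, was lower in the 6C5 cells. They run from 250 bases before the start of transcription to 50 after it in RefSeq on GRCm38.p6, for Dct chr14:118052197-118052496 (minus strand), for Tyrp1 chr4:80833963-80834262 (plus strand) and for Tyr chr7:87493463-87493762 (minus strand). Pmel and Mlana had no entry. Capitals mark the letters CATGTG or, on the other strand, CACATG.
Dct: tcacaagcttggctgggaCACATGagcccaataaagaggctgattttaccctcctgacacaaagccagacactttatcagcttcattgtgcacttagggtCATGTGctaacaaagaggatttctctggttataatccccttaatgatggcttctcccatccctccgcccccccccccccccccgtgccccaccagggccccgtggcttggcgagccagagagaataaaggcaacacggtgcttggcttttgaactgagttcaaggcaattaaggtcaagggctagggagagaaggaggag
Tyrp1: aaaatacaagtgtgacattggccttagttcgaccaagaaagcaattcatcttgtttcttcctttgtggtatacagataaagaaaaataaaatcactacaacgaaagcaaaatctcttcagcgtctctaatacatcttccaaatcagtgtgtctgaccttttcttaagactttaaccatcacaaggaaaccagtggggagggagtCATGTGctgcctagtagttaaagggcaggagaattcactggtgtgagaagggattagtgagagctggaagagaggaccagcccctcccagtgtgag
Tyr: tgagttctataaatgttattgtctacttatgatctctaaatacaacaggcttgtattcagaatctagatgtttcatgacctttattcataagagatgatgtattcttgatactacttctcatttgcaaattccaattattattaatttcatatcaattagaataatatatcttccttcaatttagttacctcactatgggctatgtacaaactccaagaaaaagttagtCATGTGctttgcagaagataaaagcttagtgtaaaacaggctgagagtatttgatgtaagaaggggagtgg
CACATG began 232 bases and CATGTG 150 bases before the Dct start. CATGTG began 46 bases before the Tyrp1 start and 21 bases before the Tyr start. Either form was found in 14.2% of all 32851 windows of this length. A match describes the letters only and is no evidence of binding here.

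The cells matched the label. The Sox10 level, which the limits did not use, was 336 counts per 1000000 UMIs (CPM; UMIs summed over the cells of a library) in PBS and 306 CPM in 6C5, and 0.918 and 1.49 CPM in macrophage-type barcodes. Macrophage-type barcodes, used here for comparison, numbered 1159 in PBS and 923 in 6C5. They passed the same UMI and mitochondrial limits, had C1q genes at 0.4% or more, at least 2 Ptprc UMIs and the 4 melanoma genes below 0.3%. Pmel, Dct and Tyrp1 were among the 10 genes that led most over macrophage-type barcodes, and the others were Tspan10, Ptgds, Serpinh1, Slc45a2, Syt4, Sparc and Aebp1. Slc45a2, a melanosome transporter, stood at 778 and 573 CPM in the PBS and 6C5 cells, against 1.47 and 2.17 CPM in the macrophage-type barcodes. Serpinh1, a collagen chaperone, stood at 798 and 910 CPM. Since the limits choose cells with a melanocytic profile, these values are a description.

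Most, but not all, marker lists of other cell types were low in the melanoma cells. All 7 keratinocyte genes were at 0 UMIs, and the 14 T and NK cell genes summed to 3.59 CPM in PBS and 2.85 CPM in 6C5, with Trac, Cd4, Ncr1 and Klrb1c at 0 in both. The 10 fibroblast genes summed to 20.4 and 20.1 CPM, mostly from Col1a2 and Pdgfrb, with Col3a1 and Pdgfra at 0. The 15 leukocyte genes summed to 191 and 236 CPM against 13101 and 16318 CPM in macrophage-type barcodes. Arhgdib, one of them, gave 99.0 and 99.4 CPM of these sums. The 8 Schwann and glial genes summed to 163 and 106 CPM, and S100b and Cdh19, which melanocytes also express, made up most of it. The 18 macrophage and monocyte genes summed to 1024 and 727 CPM against 30766 and 32253 CPM in macrophage-type barcodes, and Apoe, a lipid carrier, gave 955 and 626 CPM of it. The 10 dendritic cell genes summed to 859 and 901 CPM, against 1051 and 1405 CPM in macrophage-type barcodes, from Bst2 at 747 and 804 CPM and Fscn1 at 103 and 89.0 CPM. Flt3, Xcr1 and Clec9a from that list had at most 3 UMIs in a group. The 9 neutrophil genes summed to 11.5 CPM in PBS and 35.2 CPM in 6C5 against 1608 and 1727 CPM in free RNA. Of 3 measured, 2 were over 2-fold higher in 6C5 (2.05% of all genes were). They were S100a8 at 1.97 and 11.1 CPM and S100a9 at 2.87 and 14.2 CPM. Without the 25% of cells richest in leukocyte RNA, their log2 ratios were 0.040 and -0.051. With free RNA subtracted that of S100a8 was 2.22 and no UMIs of S100a9 were left in either group. The subtraction was scaled on the neutrophil genes themselves, with erythrocyte genes, so it cannot judge S100a8 and S100a9. Xist, the X-inactivation RNA of female cells, was at 1.26 and 1.52 CPM against 299 and 167 CPM in macrophage-type barcodes, and the 4 Y-linked genes Ddx3y, Eif2s3y, Uty and Kdm5d were at 0 UMIs.

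**Figure D1:**
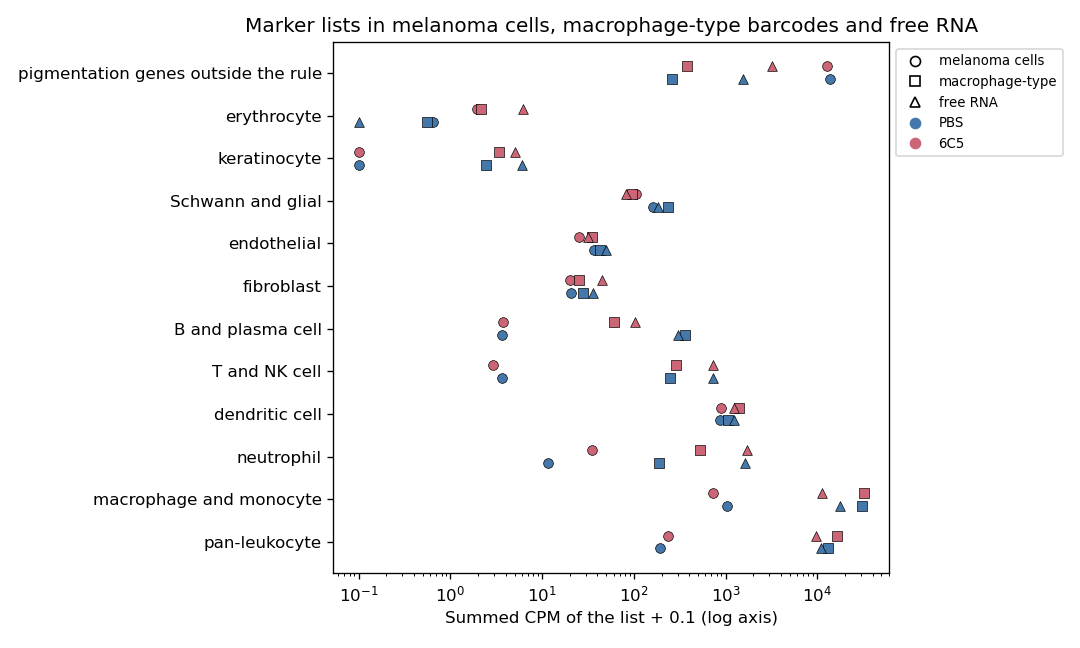
Summed CPM of 12 marker lists (log axis, 0.1 CPM added) in melanoma cells (circles), macrophage-type barcodes (squares) and free RNA (triangles), with PBS in blue and 6C5 in red. Melanoma cells lie far below the other 2 sources for leukocyte, macrophage, neutrophil and T and NK cell lists, and far above them for pigmentation genes.

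The melanoma cells held much more RNA than the other barcodes. Their median was 53991.5 UMIs in PBS (range 5151 to 93566) and 55053 UMIs in 6C5 (range 4414 to 135188), against 12355 and 10591 UMIs in the other barcodes that passed. They detected a median of 7626 and 7414 genes. They therefore gave 10.3% of the UMIs of passing barcodes in PBS and 24.2% in 6C5. The libraries held 78923567 and 85921419 UMIs in all. The melanoma cells' own sums were 5574994 and 15097394 UMIs, so the 6C5 values have the smaller counting error.

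Free RNA, read from barcodes with 10 to 100 UMIs, contained melanoma RNA in both libraries. Pmel, Mlana, Dct and Tyrp1 made up 0.149% of it in PBS and 0.258% in 6C5, below the 0.6% limit. Judged from neutrophil and erythrocyte genes, the share of the melanoma cells' UMIs that came from free RNA was estimated at 0.747% in PBS and 2.14% in 6C5. Neutrophil genes had a median of 0% of UMIs per cell in both groups, with the highest cell at 0.0582% in PBS and 0.326% in 6C5. A few cells can thus carry much of the estimate, and subtraction by it may remove too much, above all in 6C5. This was not tested and limits all values given with free RNA subtracted. Of the barcode sequences, 295 had at least 500 UMIs in both libraries, 1 PBS and 6 6C5 melanoma cells were among them, and 0 were melanoma cells in both. In PBS 7 melanoma cells (6.60%) and in 6C5 27 (9.89%) had under 15000 UMIs. Leukocyte genes had a median of 0.111% and 0.115% of UMIs in these, against 0.0139% and 0.0133% in deeper cells. The part of droplets holding more than 1 cell was not tested.

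Melanoma cells made up 3.03% of passing barcodes in PBS (106 of 3493, exact interval 2.49 to 3.66%) and 7.07% in 6C5 (273 of 3862, 6.28 to 7.92%). The ratio was 2.33 (1.87 to 2.90). The sort sets this share, and a different purity of the 2 sorts cannot be told apart from a different tumour. Barcodes that met the melanoma minimum but broke the Ptprc or C1q limit numbered 5 in PBS (0.143%) and 28 in 6C5 (0.725%). They were 4.50% (1.48 to 10.2%) and 9.30% (6.27 to 13.2%) of all barcodes that met the minimum, intervals that overlap.

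The 0.6% limit met the 2 libraries at different places. The median of the 4 rule genes was 1.49% of UMIs in PBS cells (range 0.609 to 2.52%) and 1.04% in 6C5 cells (range 0.614 to 3.80%). Just inside, at 0.6 to 0.7%, lay 1 PBS and 25 6C5 cells. Just outside, at 0.3 to 0.6% with the other limits met, lay 2 PBS and 42 6C5 barcodes, the nearest in PBS at 0.477%. The 42 barcodes in 6C5 had a median of 38504.5 UMIs and Sox10 at 256 CPM, close to the members' 306 CPM. With a minimum of 1.2%, 80 PBS and 81 6C5 cells remained and the ratio of shares was 0.916. A higher minimum of the same 4 genes removes more 6C5 cells because their median was lower. This ratio therefore shows only that the comparison of shares depends on where the limit is set. For the other limits, 10 and 21 members had 1 Ptprc UMI, and 33 and 167 had 0 C1q UMIs. The lowest members in UMIs had 5151 and 4414, and 4 and 40 barcodes between 2000 and 4000 UMIs met all other limits.

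**Figure D2:**
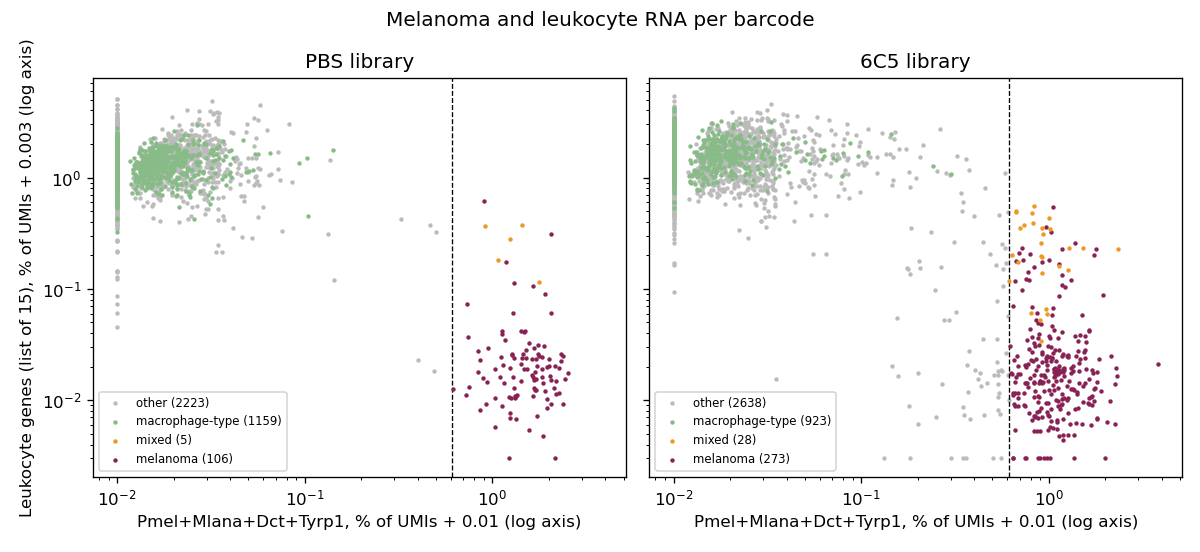
Leukocyte gene share against the share of Pmel, Mlana, Dct and Tyrp1 in each passing barcode (log axes, 0.003 and 0.01 percentage points added), PBS left and 6C5 right, with the 0.6% minimum dashed. Melanoma cells (purple, 106 and 273) form a cloud with little leukocyte RNA, and in 6C5 this cloud reaches the dashed line and continues past it, while in PBS it lies mostly well above it.

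The rule genes were all lower in the 6C5 cells, which is given as a description because they chose the cells. Pmel stood at 4833 CPM in PBS and 3420 CPM in 6C5, with cell medians of 4658 and 2965 CPM. Mlana stood at 2062 and 1213 CPM, Dct at 4024 and 3221 CPM, and Tyrp1 at 4084 and 3180 CPM. The ratios ran from 0.588 for Mlana to 0.800 for Dct. Cells of both groups overlapped widely for each.

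Over all 11783 genes with at least 30 UMIs, 241 (2.05%) were over 2-fold higher in 6C5 and 237 (2.01%) over 2-fold lower. These are past the fold used here and not significant calls, since 1 library per group gives no replicate spread. All log2 ratios below are of CPM plus 1. Their median over all genes was -0.07, and the genes and lists below were counted against that background. With edgeR's TMM scaling that median was 0.05, and 309 genes were over 2-fold higher and 173 lower. With a pseudocount of 10 CPM, which pulls low genes toward 0, 61 were higher and 36 lower. Genes named below that then lay within 2-fold included Ccn1, S100a4, Isg20, Zbp1, Asns, Chac1, Klf4, P4ha2, Psmb8, Psmb9, Cxcl10, Arg1, Etv1, Etv5 and Slc40a1.

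Several pigmentation genes that the limits did not use were lower in 6C5. Of the 21 measured (of 23), 14 lay below 0 and 7 above, where 40.5% of all genes lay above, with a median log2 ratio of -0.44, and 0 passed 2-fold in either direction. The interval of the ratio lay below 1 for 12 and above 1 for 5. Intervals were not counted over all genes, so these 2 numbers have no background here. Tyr, the rate-limiting enzyme of melanin synthesis, stood at 727 CPM in PBS (705 to 750) and 386 CPM in 6C5 (377 to 396), a ratio of 0.532 (0.511 to 0.553). Its median per cell was 637 CPM in PBS (0 to 2249) and 274 CPM in 6C5 (0 to 2594), so most 6C5 cells lay lower but the ranges overlapped. Trpm1, a melanocyte cation channel, stood at 348 and 178 CPM, a ratio of 0.511 (0.481 to 0.542). Slc24a5, an ion exchanger of the melanosome pathway, stood at 602 and 312 CPM, a ratio of 0.519 (0.496 to 0.542). Not all members went this way. Ptgds, a prostaglandin D synthase, stood at 4061 and 4450 CPM, a ratio of 1.10 (1.08 to 1.11), and Gpnmb, a melanosome glycoprotein, at 3118 and 3551 CPM.

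The pigmentation difference moved with the limit that chose the cells. Across cells, the share of these genes followed that of the rule genes, with Spearman rho 0.624 over 106 PBS cells and 0.629 over 273 6C5 cells. The cells of each group share a library and differ in depth. With the minimum raised to 1.2% the list's median was 0.01 and the Tyr log2 ratio -0.26, against -0.91. With the minimum lowered to 0.3% they were -0.50 and -0.99.

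The transcription factors above these genes differed in both directions. Among 16 measured melanocyte and neural crest regulators (of 21) 6 lay above and 10 below 0, with a median log2 ratio of -0.08 (0.03 with TMM scaling), and 0 passed 2-fold. The interval of the ratio lay above 1 for 4 and below 1 for 6, again without a count over all genes. Mitf stood at 590 and 466 CPM, a ratio of 0.790 (0.758 to 0.824). Sox10 had a ratio of 0.911 (0.863 to 0.961), although its log2 ratio was 0.05 with the minimum at 1.2%, and Pax3, at 340 and 303 CPM, one of 0.894 (0.847 to 0.943). Sox5, a repressor of melanocyte genes, was lower, at 63.3 and 33.0 CPM, a ratio of 0.521 (0.454 to 0.599). Sox9, a factor of neural crest and less pigmented states, was higher, at 34.1 and 61.6 CPM, a ratio of 1.81 (1.54 to 2.12), and Tfap2a stood at 28.9 and 42.0 CPM. Sox6 stood at 7.35 and 12.2 CPM, a ratio of 1.66 (1.18 to 2.39).

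Genes of the invasive or dedifferentiated melanoma state were on the whole higher in 6C5. Of 17 measured (of 29), 13 lay above 0 with a median of 0.35, and 5 passed 2-fold upward (against 2.05% of all genes) and 0 downward. The interval of the ratio lay above 1 for 11 and below 1 for 2, also without a count over all genes. Among the 4 genes below 0 were Axl and Jun, with log2 ratios of -0.69 and -0.38. In macrophage-type barcodes the same list had a median of 0.47 over 15 measured genes, so a higher list was not particular to the melanoma cells. Fn1, the matrix protein fibronectin, stood at 6.996 CPM in PBS (4.97 to 9.56) and 72.9 CPM in 6C5 (68.7 to 77.4), a ratio of 10.4 (7.58 to 14.7). Fn1 UMIs were found in 27 of 106 PBS cells and 212 of 273 6C5 cells. Macrophage-type barcodes had Fn1 at 51.1 and 128 CPM and free RNA at 80.7 and 112 CPM, and with free RNA subtracted its log2 ratio was 3.29, against 3.21. Nes, the neural crest filament nestin, stood at 5.74 and 32.3 CPM, a ratio of 5.63 (3.94 to 8.33), with free RNA at only 3.94 and 9.65 CPM. Ccn1, a matrix protein of Yap signalling, stood at 50.9 and 106 CPM, a ratio of 2.09 (1.84 to 2.38), with free RNA at 3.94 and 25.4 CPM. S100a6 and S100a4, calcium-binding proteins, stood at 7.89 and 44.4 CPM and at 2.69 and 11.5 CPM, against 671 and 861 CPM and 327 and 265 CPM in free RNA. With a pseudocount of 10 CPM the log2 ratio of S100a4 was 0.76, against 1.76, and Ccn1 lay within 2-fold too.

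The 8 genes with the highest ratios were Gm20628, Tagln2, Fn1, Tnfrsf9, Cxcl2, Il1rn, Hist1h4d and Nppb. Tagln2, Tnfrsf9, Cxcl2 and Il1rn are also expressed by leukocytes. Tagln2, an actin-binding protein, stood at 33.0 CPM in PBS (28.4 to 38.1) and 355 CPM in 6C5 (346 to 365), a ratio of 10.8 (9.29 to 12.5). Its median per cell was 12.6 CPM (0 to 647) and 269 CPM (0 to 1500). With each cell thinned to 4000 UMIs, 7.55% of PBS and 63.0% of 6C5 cells had a UMI, and 86.7% and 83.3% of macrophage-type barcodes did. Free RNA had 880 CPM in PBS and 547 CPM in 6C5, the opposite order, and after free RNA was subtracted the log2 ratio was 3.67, against 3.39. Nppb, a natriuretic peptide, stood at 2.33 and 21.7 CPM, a ratio of 9.32 (5.37 to 17.7), with free RNA at 0 and 8.57 CPM. Tnfrsf9, the costimulatory receptor 4-1BB, stood at 3.23 and 30.5 CPM against 74.8 and 87.5 CPM in free RNA. With free RNA subtracted its log2 ratio was 3.03, against 2.90.

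Gm20628 and Hist1h4d are uncertain by their kind. Gm20628, annotated as antisense, stood at 1.61 and 28.9 CPM, and in 6C5 only 52 of 273 cells had a UMI, 1 of them at 5290 CPM. Whether its reads were kept apart from those of the gene on the other strand was not tested. Hist1h4d, at 4.84 and 39.9 CPM, belongs to a family of near-identical histone genes between which reads can be split.

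Among the genes lower in 6C5, Cck led. Cck, which encodes the peptide hormone cholecystokinin, stood at 1812 CPM in PBS (1777 to 1848) and 69.1 CPM in 6C5 (65.0 to 73.4), a ratio of 0.0381 (0.0357 to 0.0406). PBS cells ranged from 0 to 11686 CPM with a median of 718 CPM, and 6C5 cells from 0 to 4234 CPM with a median of 0. At 4000 UMIs per cell, 67.9% of PBS and 6.96% of 6C5 cells had a Cck UMI, against 3.19% and 0.108% of macrophage-type barcodes. Free RNA followed, at 201 and 12.1 CPM. The cells were thus heterogeneous within PBS, where the middle of the cells spanned 51.0 to 2670 CPM (quartiles), and mostly at 0 in 6C5.

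The other 7 of the 8 lowest genes were Hhatl, Kcnj13, Gpr37, Gpr158, Slc13a4, Sgpp2 and Snhg7os. Hhatl, a membrane protein related to hedgehog acyltransferase, stood at 63.0 and 3.97 CPM, a ratio of 0.0631 (0.0472 to 0.0832). Kcnj13, a potassium channel, stood at 216 and 35.2 CPM, a ratio of 0.163 (0.147 to 0.181). The orphan receptors Gpr37 and Gpr158 stood at 54.7 and 8.54 CPM and at 112 and 24.7 CPM. Slc13a4, Sgpp2 and the antisense gene Snhg7os had UMI sums of 163, 101 and 143 in PBS and of 59, 37 and 37 in 6C5. Cck, Hhatl, Kcnj13, Gpr37 and Gpr158 were at 7.39 CPM or less in macrophage-type barcodes of both libraries.

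**Figure D3:**
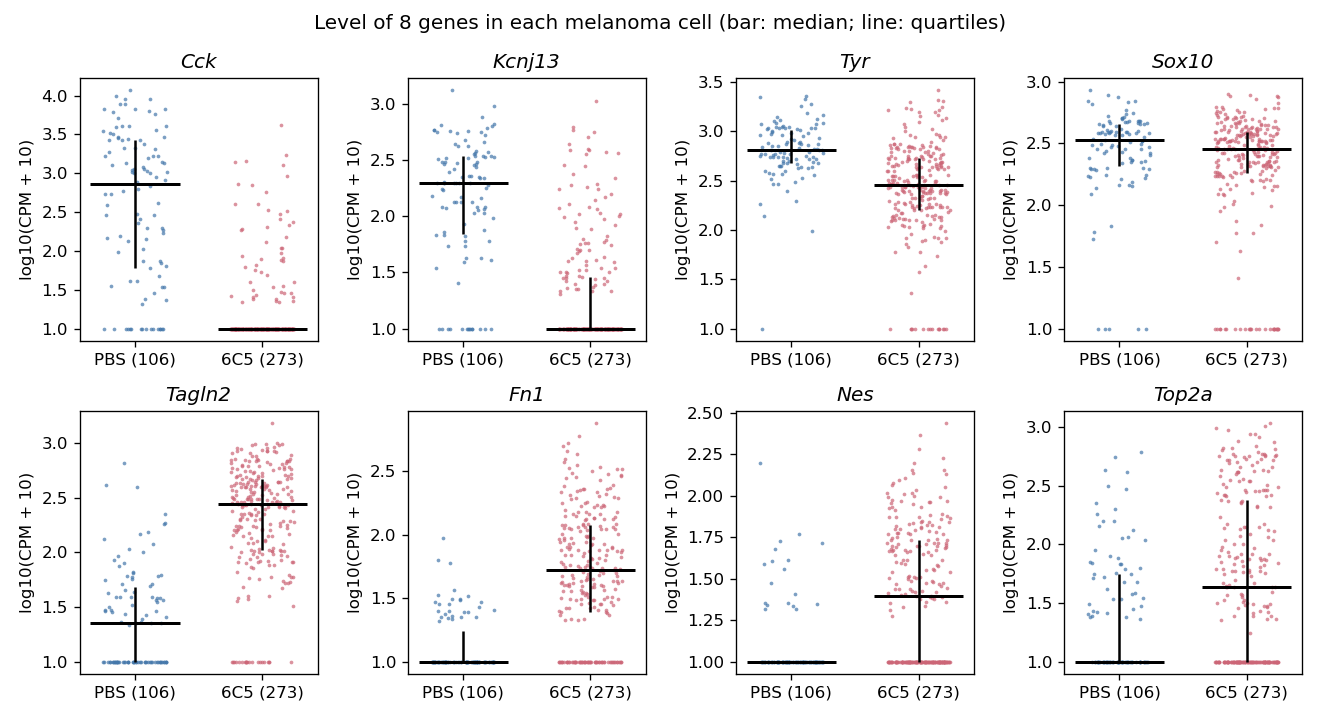
Level of 8 genes in each of the 106 PBS (blue) and 273 6C5 (red) melanoma cells, as log10(CPM + 10), with the median (bar) and quartiles (line). Cck, Kcnj13 and Tyr lie lower and Tagln2, Fn1, Nes and Top2a higher in 6C5, Sox10 lies nearly level, and the cells of both groups overlap in all 8.

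Cell cycle genes were higher in the 6C5 cells. Of 22 genes of G2 and M phase, 22 lay above 0, 9 passed 2-fold upward (2.05% of all genes did), and the median log2 ratio was 0.94. Among cells under the cycle cut described next, the median was -0.20, and Mki67 and Ube2c had log2 ratios of -0.17 and -0.67. Of 22 S phase genes, 21 lay above 0, 1 passed 2-fold upward (against 2.05%) and the median was 0.51. Top2a, the DNA topoisomerase of dividing cells, stood at 62.1 and 182 CPM, a ratio of 2.94 (2.63 to 3.30). Mki67, a proliferation marker, stood at 85.0 and 188 CPM, a ratio of 2.21 (2.01 to 2.45), and Ube2c, which loads ubiquitin for mitotic exit, at 110 and 341 CPM. Aurkb, a mitotic kinase, had a ratio of 3.38 (2.82 to 4.08).

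The number of cells with cycle RNA differed too. Cells whose S plus G2 and M genes reached 0.3% of UMIs, after thinning to 4000 UMIs, were 29 of 106 in PBS (27.4%, exact interval 19.1 to 36.9%) and 130 of 273 in 6C5 (47.6%, 41.6 to 53.7%). The ratio was 1.74 (1.25 to 2.43). Unthinned, the counts were 29 and 133. The class is a range cut from a score, and 15 and 39 cells lay near the cut. With the rule genes at 1.2% or more 20.0% of 80 PBS cells and 25.9% of 81 6C5 cells were cycling. The ratio was then 1.30, for which no interval was computed, so a difference from 1 was not judged. Among macrophage-type barcodes the order was the opposite, 29.6% in PBS (343 of 1159) and 7.91% in 6C5 (73 of 923). Free RNA had Top2a at 74.8 and 95.4 CPM, and its part in the phase calls was not tested.

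Within each library, pigment genes took a smaller share of UMIs in cycling cells, which also held more UMIs. The share of pigmentation genes outside the rule had a median of 1.13% of UMIs in the 29 cycling and 1.58% in the 77 other PBS cells. In 6C5 it was 1.07% in 133 cycling and 1.35% in 140 other cells. Across cells, Spearman rho between pigmentation and cycle shares was -0.561 (106 PBS cells) and -0.392 (273 6C5 cells). Depth moved with the cycle score, with rho 0.392 and 0.446, and cycling cells had a median of 68860 and 69713 UMIs against 48321 and 47962. Among the other cells alone, the list medians of 6C5 over PBS were -0.29 for pigmentation and 0.48 for invasive genes, and Tyr stood at 795 and 449 CPM.

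**Figure D4:**
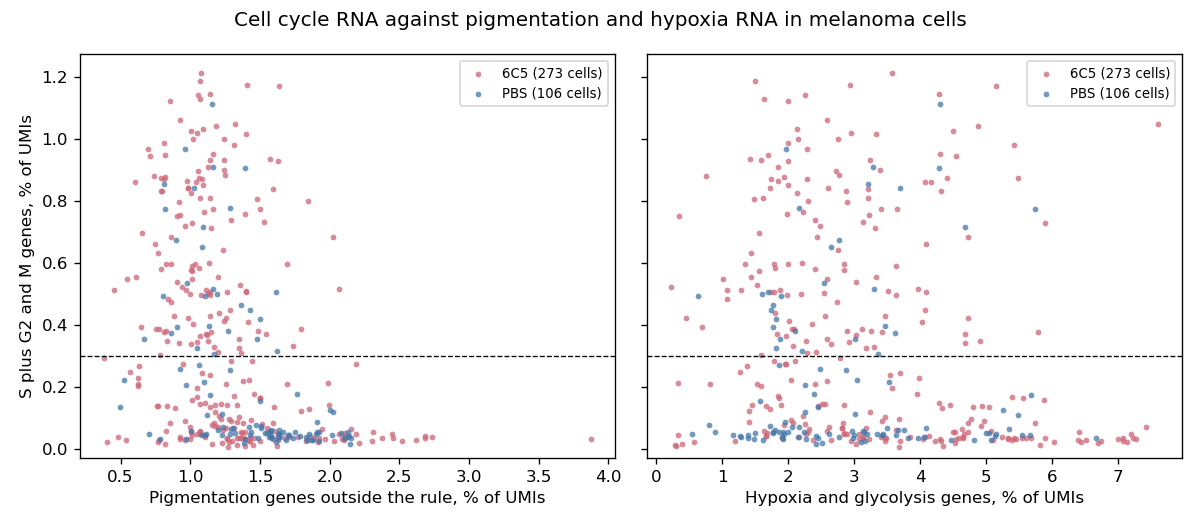
Share of S plus G2 and M genes in each melanoma cell (percent of UMIs, unthinned) against the share of pigmentation genes outside the rule (left) and of hypoxia and glycolysis genes (right), PBS blue and 6C5 red, with the 0.3% cut dashed. Cells above the cut lie mostly under 2% pigmentation, and the cells with the highest hypoxia and glycolysis shares are mostly 6C5 cells under the cut.

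Genes of antigen presentation on MHC class I were moderately higher in 6C5. Of 18 measured (of 20), 12 lay above 0, 2 passed 2-fold upward (2.05% of all genes did), and the median log2 ratio was 0.16. Over 17 alternatives this median ran from 0.03 to 0.54, the highest with the melanoma minimum at 1.2%. The class I heavy chains H2-K1 and H2-D1 stood at 185 and 337 CPM and at 313 and 515 CPM, ratios of 1.82 (1.70 to 1.95) and 1.64 (1.56 to 1.73). Reads of these near-identical genes may be shared between copies. B2m, the light chain, stood at 1375 and 1766 CPM, a ratio of 1.28 (1.25 to 1.32). Psmb8 and Psmb9, subunits of the immunoproteasome that cuts peptides for class I, had ratios of 2.29 (1.95 to 2.72) and 2.103 (1.77 to 2.51). Without the 25% of cells richest in leukocyte RNA, the log2 ratio of Psmb8 was 0.82, against 1.17. Macrophage-type barcodes had 2545 and 3305 CPM of H2-K1 and free RNA 1756 and 1493 CPM, which is lower in 6C5. With free RNA subtracted, the log2 ratio of H2-K1 was 0.84, against 0.86.

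Interferon genes gave no single direction. Of 23 type I interferon-stimulated genes 17 lay above 0, with a median of 0.19. Over 17 alternatives this median ran from 0.09 to 0.42, the highest with the minimum at 1.2%. Past 2-fold upward were 2 (2.05% of all genes were), Isg20 at 4.30 and 14.6 CPM and Zbp1 at 14.7 and 31.5 CPM. Without the leukocyte-rich cells the log2 ratio of Zbp1 was 0.67, against 1.05. Ifit1 was lower, at 64.9 and 38.1 CPM, a ratio of 0.587 (0.513 to 0.671). In macrophage-type barcodes the same list had a median of 0.71. Across melanoma cells, the shares of interferon-stimulated and class I genes moved together, with Spearman rho 0.484 over 106 PBS cells and 0.586 over 273 6C5 cells. In PBS the interferon list summed to 1895 CPM in melanoma cells and 4269 CPM in macrophage-type barcodes, and class I to 4015 and 15663 CPM. The part of leukocyte RNA in this relation was not tested. The 16 measured interferon-gamma response genes had a median of -0.13. Iigp1, Jak2 and Ifngr2, a GTPase, a kinase and a receptor chain of that pathway, were lower, with ratios of 0.601, 0.616 and 0.625. Cxcl10 was higher, at 4.48 and 12.7 CPM, but free RNA held 358 and 647 CPM of it, and with free RNA subtracted its log2 ratio was -1.50.

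MHC class II genes were near the free RNA background. Cd74, the invariant chain, stood at 56.3 and 60.8 CPM against 8710 and 6168 CPM in free RNA. The 6 measured genes had a median of 0.13, which was -0.87 with free RNA subtracted. The 8 genes summed to 123 and 125 CPM, and 1 PBS cell had 1.60% of its UMIs from them while the median PBS cell had 0.00715%.

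Ligands that inhibit leukocytes differed in both directions. Of 8 measured (of 17), 5 lay above and 3 below 0, 1 passed 2-fold upward (2.05% of all genes did), and the median was 0.04. Cd274, which encodes PD-L1, stood at 17.4 and 15.7 CPM, a ratio of 0.902 (0.709 to 1.15), an interval that includes 1. Cd47, the signal against phagocytosis, stood at 34.6 and 48.6 CPM, a ratio of 1.40 (1.195 to 1.65). Pvr, a ligand of Tigit, stood at 10.9 and 16.6 CPM, a ratio of 1.51 (1.14 to 2.04). Nectin2 stood at 19.7 and 15.4 CPM, a ratio of 0.779 (0.618 to 0.986), and Cd276, which encodes B7-H3, at 3.41 and 1.92 CPM, a ratio of 0.564 (0.305 to 1.06). Lgals3, galectin 3, had a ratio of 2.51 (2.09 to 3.05) at 22.96 and 57.7 CPM, with 1466 and 1846 CPM in free RNA, and its log2 ratio was 0.59 with free RNA subtracted, against 1.29.

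AXL, the target of 6C5, belongs to the TAM receptors, which bind the ligands Gas6 and Pros1. The gene table had 0 rows named AXL, so the human transgene was not measured, and the mouse gene follows. Mouse Axl stood at 36.4 CPM in PBS (31.6 to 41.8) and 22.3 CPM in 6C5 (19.9 to 24.8), a ratio of 0.611 (0.512 to 0.731). The cell medians were 29.9 CPM (0 to 130) and 15.02 CPM (0 to 165), which overlap widely. Mertk stood at 56.9 and 35.2 CPM, a ratio of 0.620 (0.538 to 0.714). Free RNA had Axl at 55.1 and 31.1 CPM and Mertk at 59.1 and 37.9 CPM, also lower in 6C5. Tyro3 stood at 8.25 and 10.4 CPM, a ratio of 1.26 (0.902 to 1.79). Gas6 was at 2.33 and 2.25 CPM and Pros1 at 3.77 and 2.98 CPM, both far below the macrophage-type barcodes (125 and 29.1 CPM, and 75.5 and 20.3 CPM).

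Metabolic and stress genes were mixed. The list of hypoxia and glycolysis, with 29 of 30 genes measured, had 22 above 0, 2 past 2-fold upward (2.05% of all genes were) and a median of 0.17. Over 17 alternatives this median ran from 0.05 to 0.40, the highest in non-cycling cells. In macrophage-type barcodes the same list had a median of 0.48, so a higher list was not particular to the melanoma cells. Ero1l, an oxidase of the endoplasmic reticulum, stood at 105 and 315 CPM, a ratio of 2.99 (2.74 to 3.26), and P4ha2, a collagen prolyl hydroxylase, at 23.3 and 49.3 CPM. Car9, carbonic anhydrase 9, stood at 57.2 and 94.98 CPM. Vegfa, at 64.2 and 69.6 CPM, had a ratio of 1.08 (0.961 to 1.23). In the non-cycling cells the hypoxia share had a median of 2.62% in PBS and 3.47% in 6C5.

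All 13 mitochondrially encoded genes were lower in 6C5, with a median of -0.66, and 0 of them passed 2-fold (2.01% of all genes did). mt-Co3, a subunit of complex IV, stood at 1361 and 714 CPM. The nuclear genes of oxidative phosphorylation had a median of 0.02 over 25 genes. In macrophage-type barcodes the mitochondrial genes were lower too, with a median of -1.11, and in free RNA their sum was 16343 and 9186 CPM. With free RNA subtracted, the list's median in the melanoma cells was -0.67.

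Genes of the unfolded protein and integrated stress response lay above 0 in 19 of 21 measured cases, with a median of 0.32 and 3 past 2-fold upward, where 2.05% of all genes were. Atf3, Asns and Chac1, a stress factor and 2 targets of Atf4, had ratios of 3.32 (2.67 to 4.17), 2.99 (2.20 to 4.16) and 2.43 (1.68 to 3.62). Asns and Chac1 were at 9.29 CPM or less in free RNA, while Atf3 was at 535 and 493 CPM there. Immediate-early and heat-shock genes had a median of 0.33 over 21 genes, with 4 past 2-fold upward (again against 2.05%). Klf2 stood at 30.7 and 99.6 CPM and Klf4 at 8.97 and 26.0 CPM, both zinc finger factors, while Jun was lower, at 563 and 433 CPM.

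Genes known as outputs of MAPK signalling lay below 0 in 10 of 12 cases, with a median of -0.37 and 2 past 2-fold downward (2.01% of all genes). Etv1, an ETS factor, stood at 23.1 and 6.76 CPM, a ratio of 0.292 (0.223 to 0.382), and Etv5 at 4.30 and 1.52 CPM. Dusp6, a phosphatase that turns off Erk, stood at 64.9 and 44.7 CPM, a ratio of 0.689 (0.605 to 0.785). Dusp5 went the other way, at 2.15 and 4.31 CPM.

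Cell cycle arrest and survival genes showed no common direction. Of 12 measured p53 and arrest genes 6 lay above and 6 below 0. Cdkn1a stood at 61.3 and 101 CPM, a ratio of 1.65 (1.47 to 1.86), with cell medians of 0 and 34.5 CPM. Cdkn2a, a tumour suppressor of melanocytes, had 0 UMIs in both groups, which allows up to 0.538 CPM in PBS and 0.199 CPM in 6C5 (3 counts per library), against 10.9 and 2.504 CPM in macrophage-type barcodes. Bcl2l11, which encodes the death protein Bim, stood at 21.3 and 12.7 CPM, a ratio of 0.593 (0.469 to 0.752). The 19 iron and redox genes had a median of 0.02, and Slc40a1, the iron exporter, was over 2-fold lower at 6.82 and 2.58 CPM.

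**Figure D5:**
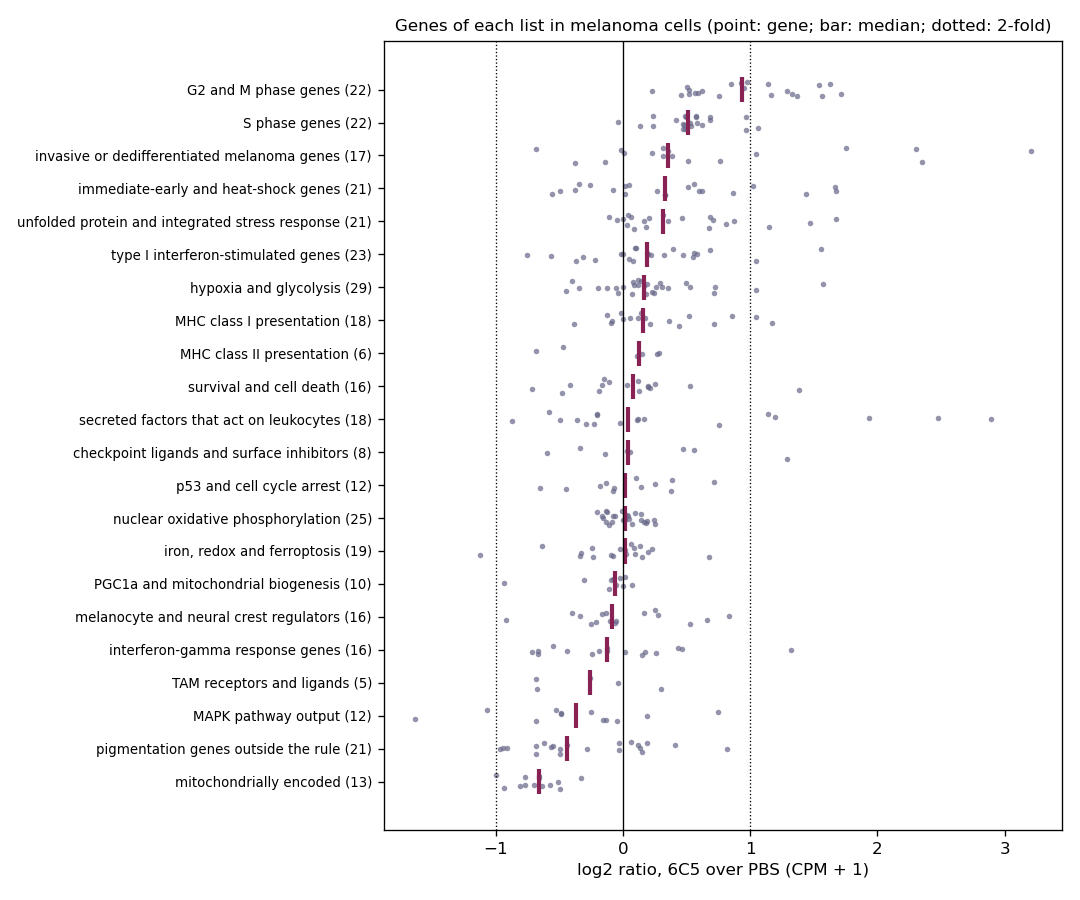
Log2 ratio, 6C5 over PBS, of each measured gene (points) in its list, with the list's median (bar), 0 (solid line) and 2-fold (dotted lines), and the number of genes in brackets. Among the lists of melanoma cell biology, G2 and M phase genes lie highest, at a median of 0.94, and mitochondrially encoded genes lowest, at -0.66.

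Some leukocyte chemokines were higher in the 6C5 melanoma cells, and Cxcl2 was higher in 6C5 free RNA too. Of 18 measured secreted factors that act on leukocytes (of 27), 9 lay above and 9 below 0, the median was 0.04, and 5 passed 2-fold upward (2.05% of all genes did). Cxcl2 stood at 12.2 and 96.8 CPM, Ccl7 at 3.59 and 24.6 CPM and Ccl2 at 5.92 and 25.5 CPM, while free RNA held 2626 and 6636 CPM of Cxcl2. Il1rn, at 0.897 and 12.5 CPM, is a leukocyte gene with 256 and 693 CPM in free RNA, and Arg1, at 0.538 and 6.36 CPM, had 27.6 and 314 CPM there. With free RNA subtracted, no UMIs of Cxcl2, Ccl7 and Il1rn were left in either group, and the log2 ratio of Arg1 was -0.42. For those with no UMIs left, the estimated free RNA was at least as large as the whole count, so no ratio could be read. Whether these UMIs came from free RNA or from droplets holding more than 1 cell was not tested. Without the 25% of cells richest in leukocyte RNA, the log2 ratios of Cxcl2 and Ccl7 were 1.27 and 0.45, against 2.89 and 2.48, and that of Ccl2 was -0.24. Spp1, osteopontin, stood at 79.5 and 52.7 CPM, with cell medians of 0 in both, while free RNA held 285 and 1495 CPM, the opposite order. Anxa1, a phospholipid-binding protein that acts on leukocytes, stood at 147 and 250 CPM, a ratio of 1.69 (1.57 to 1.83).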

How the data were processed

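Single cells of 2 libraries, 1 per group, were sequenced with a 10x Genomics kit after a CD45+ sort, per the labels. The values are deposited UMI counts, not normalized, for all barcodes before cell calling. Per the file headers they came from Cell Ranger 7.1.0, and per the submitters' processing notes from Cell Ranger 2.1.1 on mm10. The sources used here do not say whether the counting took in intronic reads. From the deposited counts, cells were selected by the stated limits and UMIs were summed per library. Ratios have exact conditional binomial intervals, CPM exact Poisson intervals and shares Clopper-Pearson intervals, at 95%, for counting error only. A gene needed 30 UMIs over both libraries, a pseudocount of 1 CPM was used on the log scale, and over 2-fold was the size rule, since 1 library per group allows no test. No doublet caller was run, and the Ptprc and C1q limits removed only the barcodes that broke them. Leukocyte genes still reached 0.615% of UMIs in 1 PBS and 0.544% in 1 6C5 melanoma cell. Named genes were up to 4 per list with the largest ratio, the 8 highest and the 8 lowest by log2 ratio at 100 UMIs or more (other cell types' markers left out), the 10 leading genes over macrophage-type barcodes, and a set of fixed genes, and a few more members were named after their values were seen. The cells, lists and rules were chosen with earlier results of these data known. Alternatives were other limits, other scalings (edgeR 4.0.16 TMM in R 4.3.3), subtraction of free RNA, and, chosen after seeing the data, cells with at least 15000 UMIs, non-cycling cells, and the cycling share under other limits. The intervals and the size rule were tested on simulated counts with counting error only. These held no spread between cells or libraries, so they say nothing about that spread. Python 3.11.15, numpy 2.4.6, scipy 1.17.1 and pandas 2.3.3 were used. Promoters are from RefSeq.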

Additional observations from a re-analysis of the deposited data

Results flagged for a closer look

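Cell cycle genes moved in opposite directions in the 2 kinds of cells compared, and this difference was not tested. In the melanoma cells the median log2 ratio of 6C5 over PBS was 0.51 for S phase genes and 0.94 for G2 and M phase genes. In the macrophage-type barcodes of the same 2 libraries it was -1.15 and -1.57. With 1 library per group, each ratio compares 2 libraries.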

How the results depend on the processing

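No paired analysis was possible because each group had 1 library. Of 436 values for shares, counts and list medians under the alternatives, 407 stayed within the spread used to judge them, 28 moved and 1 reversed. With the melanoma minimum at 1.2% the ratio of shares reversed to 0.916, 154 genes were over 2-fold lower, and the medians were 0.013 for pigmentation, 0.54 for MHC class I, 0.42 for type I interferon, -0.56 for mitochondrially encoded and -0.61 for MHC class II genes. The cycling share in 6C5 was then 25.9%, a setting chosen after seeing the data. In non-cycling cells alone, also chosen after seeing the data, 157 genes were over 2-fold higher, and the medians were -0.29 for pigmentation, -0.20 for G2 and M phase, 0.40 for hypoxia and -0.55 for mitochondrially encoded genes. The G2 and M median is set by that choice of cells. With TMM factors the medians were -0.31 for pigmentation, 0.30 for hypoxia, -0.53 for mitochondrially encoded and 0.15 for nuclear oxidative phosphorylation genes. With a pseudocount of 10 CPM 61 genes were over 2-fold higher and 36 lower, and with at least 100 UMIs per gene 137 were lower, a set with fewer genes tested. Pigmentation genes with at least 1 UMI had a median of -0.35. Without the 25% of cells richest in leukocyte RNA the mitochondrial median was -0.73, and as a mean of per-cell CPM it was -0.58. The MHC class II median was -0.47 with Ptprc at 0 UMIs, 0.64 with at least 2000 UMIs, 0.54 with at least 15000 UMIs (chosen after seeing the data), -0.80 without the leukocyte-rich cells, -0.55 as a per-cell mean and -0.87 with free RNA subtracted. Of 2567 values for single genes, 323 moved and 17 reversed. With free RNA subtracted the log2 ratios of Arg1, Clec4d, Cxcl10 and Slfn4 were -0.42, -0.32, -1.50 and -0.091. Without the leukocyte-rich cells those of Ccl2, Cd52, Cxcl10, Fcgr1, Il1b, S100a9 and Srgn were -0.24, -0.066, -0.055, -0.27, -0.018, -0.051 and -0.14. At 1.2% those of Fcgr1 and Hspa1b were -0.86 and -0.50. In non-cycling cells those of Aurkb, Mki67, Nusap1 and Ube2c were -0.40, -0.17, -0.38 and -0.67. Apart from the alternative's own construction where named, the cause was not tested. Depth limits genes below about 0.538 CPM in PBS and 0.199 CPM in 6C5, where 3 counts are expected.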
